A study of Homo sapiens with 28 samples.

Results

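The 10 genes described here are those whose products set how a cell meets an anthracycline: the topoisomerases that the drug poisons (TOP2A and TOP2B), the membrane exporters that remove it (ABCB1, ABCC1, ABCC4 and ABCG2), the reductases that convert it (CBR1, CBR3 and NQO1) and the retinoic acid receptor RARG, a gene linked in patients to anthracycline heart damage. They were chosen by symbol from a table of 30887 rows. Of the 10 symbols, 9 had 1 row each, ABCG2 was not analysed here, and 8 passed the filter on low counts that left 15058 genes for testing. CBR3 was too low to judge.

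Messenger RNA was sequenced from Kelly cells, an established neuroblastoma line known for its amplified MYCN gene. Cells were transfected with 25 nM of 1 synthetic mimic, or of a scrambled control RNA, and collected after 48 h. The 7 groups of 4 libraries were the scrambled control and the mimics of miR-99b-5p, miR-100-3p, miR-380-3p, miR-485-3p, miR-1915-3p and miR-1283. All groups shared the cell line, the transfection reagent and the dose, and the labels name no anthracycline or other drug, so the values below are levels in cells without a labelled drug exposure. Replicates 1 and 4 of miR-1915-3p carry an unexplained suffix in their titles. Nothing in the labels ties the replicates to separate cultures, so p-values measure only the spread between these libraries, which may be technical.

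Anthracyclines such as doxorubicin slide between DNA bases and trap type II topoisomerases on the DNA they have cut, which leaves double-strand breaks. Exporters of the ATP-binding cassette family lower the drug level inside the cell. Carbonyl reductases turn the drug into alcohol metabolites, and quinone reductases act on quinone rings like the one these drugs carry. A microRNA lowers the mRNAs whose 3′ untranslated region (UTR) pairs with its seed, the bases 2 to 8 from its 5′ end.

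The mature sequences of the 6 microRNAs are shown because each seed sets which of the members' mRNAs could be paired. They are from RefSeq (GRCh38.p14), written 5′ to 3′ with the seed in capitals, and no 2 of the seeds are the same.
miR-99b-5p: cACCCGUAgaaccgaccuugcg
miR-100-3p: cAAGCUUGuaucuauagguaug
miR-380-3p: uAUGUAAUaugguccacaucuu
miR-485-3p: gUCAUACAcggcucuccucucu
miR-1915-3p: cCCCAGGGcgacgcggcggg
miR-1283: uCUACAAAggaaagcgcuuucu

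The complement of a seed, a run of 7 bases, was searched on the mRNA strand of each member's 3′ UTR in GENCODE v29 (GRCh38). Of the 48 combinations of a tested member and a mimic, 2 held a match. The ABCB1 3′ UTR, 610 bases long, held TGTATGA for miR-485-3p from its position 9 (minus strand, chr7:87504228-87504234). The ABCC4 3′ UTR, 1746 bases long, held ATTACAT for miR-380-3p from its position 353 (minus strand, chr13:95021216-95021222). With neighbouring bases of the UTR in lower case, the matches read as follows.
ABCB1: actctgacTGTATGAg
ABCC4: ttattgcccccaaaATTACATg
Neither match was followed by A. Of tested genes with a 3′ UTR of 0.8 to 1.25 times the length of that of ABCB1, 4.71% of 1486 held TGTATGA. In the same window around the length of the ABCC4 UTR, 13.4% of 1828 held ATTACAT. Over all 12535 tested genes with a 3′ UTR, the share with a match was 1.1% for miR-99b-5p, 8.76% for miR-100-3p, 12.9% for miR-380-3p, 12.2% for miR-485-3p, 20.1% for miR-1915-3p and 17.6% for miR-1283. A match is a description of these letters and not a shown site of pairing.

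Levels are given in CPM, counts divided by the effective library size, and changes as log2 of mimic over control with their standard error (SE) from the fit. Against the scrambled control, 4 of the 48 combinations of a member and a mimic were called at an adjusted p under 0.05 (8.33%), beside 9.13% over all tested genes. ABCB1 was higher under miR-380-3p and lower under miR-485-3p, CBR1 was lower under miR-99b-5p, and NQO1 was lower under miR-485-3p. By mimic, 2 of the 8 tested members were called under miR-485-3p, where 21.1% of all genes were, 1 under miR-99b-5p (16.6% of all genes) and 1 under miR-380-3p (10.9%). None was called under miR-100-3p (5.96%), miR-1915-3p (0.246%) or miR-1283 (0.0199%). The share of 8.33% is near the background and so says nothing about the members as a group. The comparisons share their 4 control libraries.

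**Figure D1:**
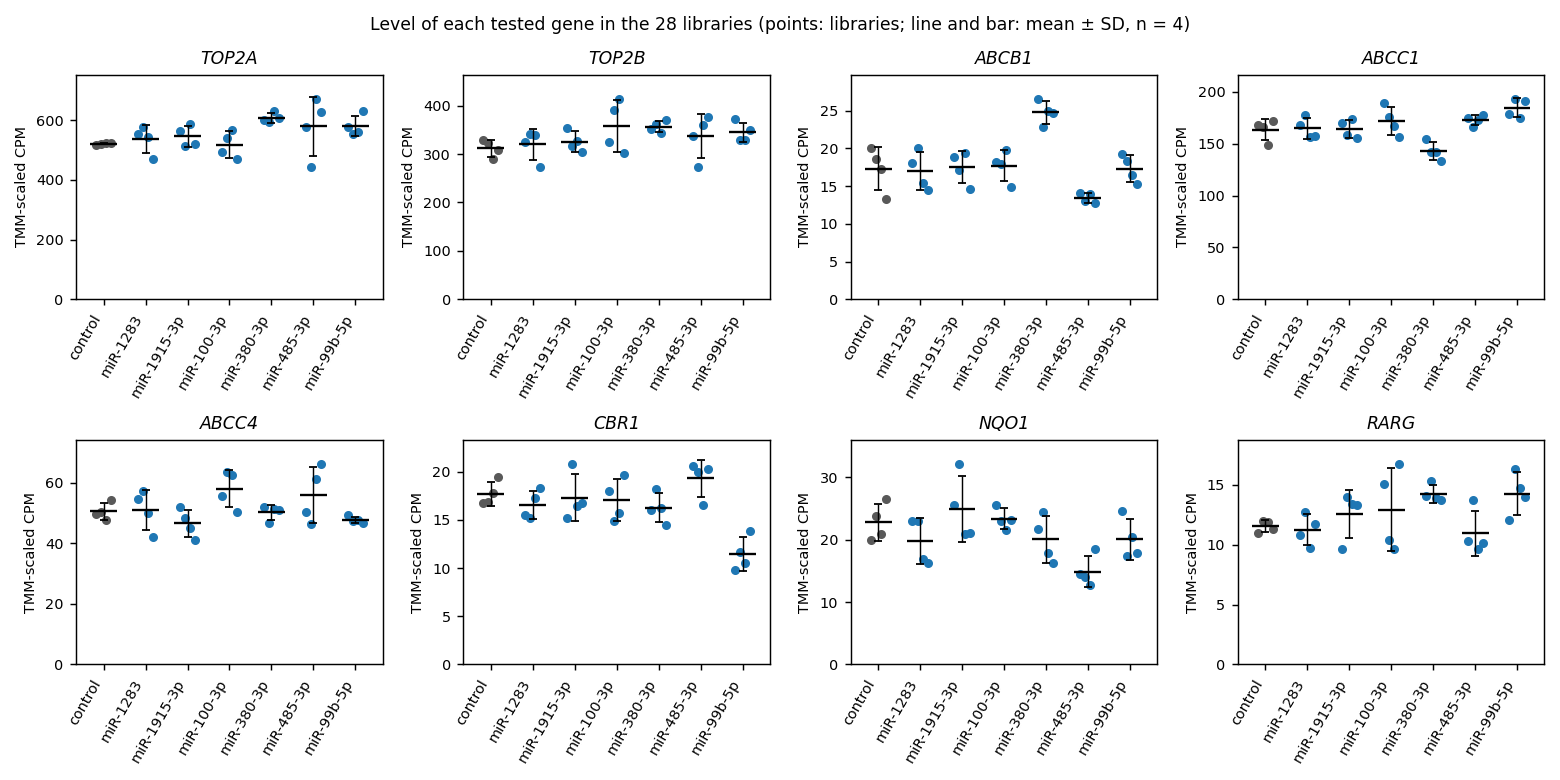
Level of each tested member in every library, in TMM-scaled CPM (y axis, linear from 0), by group (x axis). Points are libraries and the line and bar are mean ± SD of 4. ABCB1 is high in all 4 miR-380-3p libraries, CBR1 is low in all 4 miR-99b-5p libraries, and NQO1 in all 4 miR-485-3p libraries is below every control, though some libraries of other mimics are as low.

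A joint test of all 7 groups (the F test of edgeR) called 4 of the 8 tested members, beside 48.7% of all tested genes. They were ABCB1 (adjusted p = 9.85e-05), CBR1 (0.000333), ABCC1 (0.00182) and NQO1 (0.00837). The other 4 were not called, with adjusted p of 0.0786 for ABCC4, 0.11 for RARG, 0.152 for TOP2A and 0.371 for TOP2B. Without miR-485-3p replicate 2 this test called 7 members, adding TOP2A (0.00676), ABCC4 (0.0235) and RARG (0.0411).

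**Figure D2:**
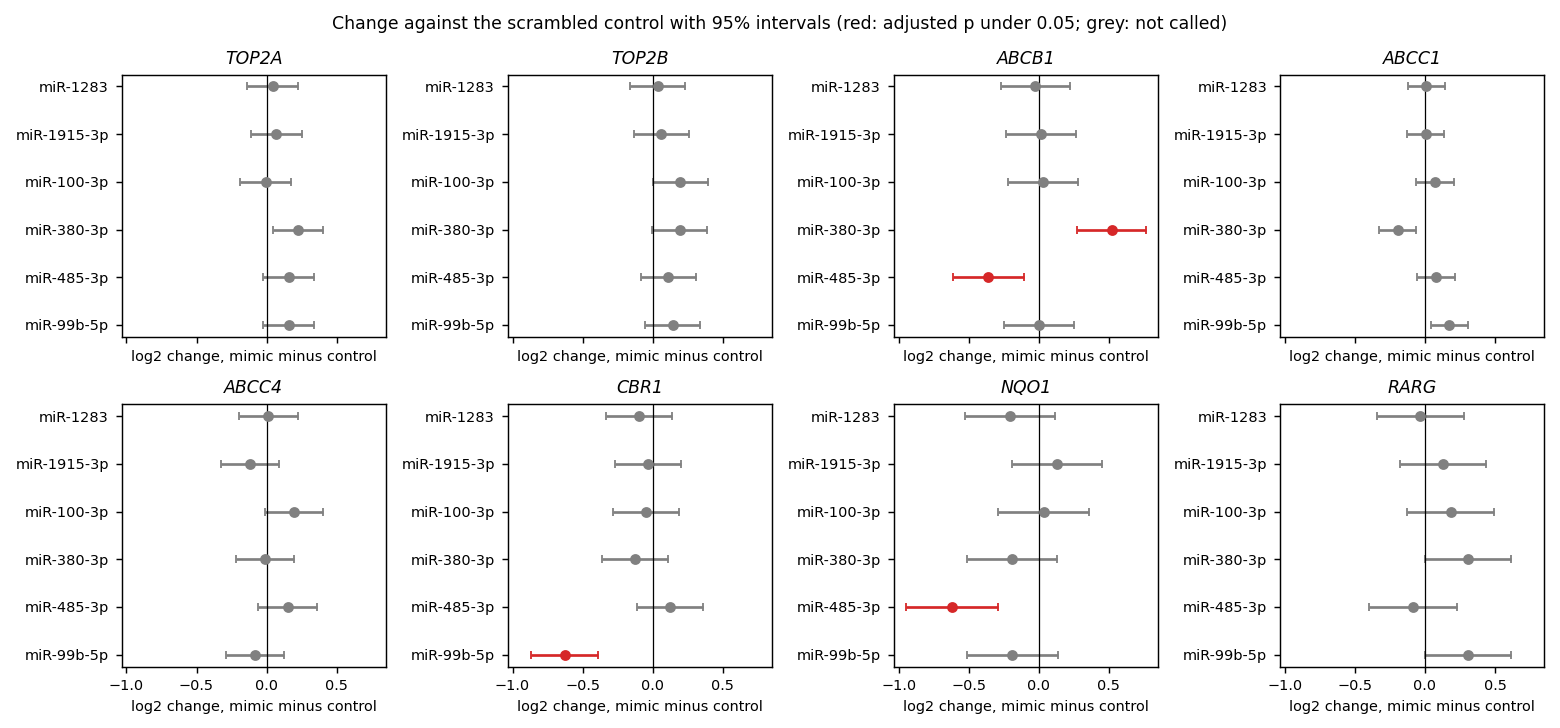
Log2 change of each tested member under each mimic against the scrambled control (x axis, mimic minus control, with 95% intervals from the fit) by mimic (y axis). Red points have an adjusted p under 0.05. The 4 red points are ABCB1 under miR-380-3p and miR-485-3p, NQO1 under miR-485-3p and CBR1 under miR-99b-5p.

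TOP2A (ENSG00000131747, chromosome 17, 40388516 to 40417950, minus strand, GRCh38) encodes the topoisomerase II of dividing cells, the chief anthracycline target in tumours. Its mRNA was the most abundant of the members. The 4 control libraries lay between 518.8 and 523.1 CPM, the 4 miR-380-3p libraries between 594.5 and 632.7 CPM, and the 4 miR-99b-5p libraries between 554.1 and 630.7 CPM. Neither mimic's range overlapped that of the control, and neither difference was called (log2 change 0.22 ± 0.09 SE, adjusted p = 0.104, and 0.16 ± 0.09, adjusted p = 0.245). The control libraries spread least of the 7 groups, with a coefficient of variation of 0.367% against a group median of 6.38%. The miR-485-3p libraries spread most, with 576.3, 445.1, 673.1 and 629.5 CPM in replicates 1, 2, 3 and 5. Their log2 change was 0.16 ± 0.09 with all 4 libraries (adjusted p = 0.226), and 0.27 without replicate 2, when it was called (adjusted p = 0.00974). Without that library the difference under miR-380-3p was called too (0.23, adjusted p = 0.0283).

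TOP2B (ENSG00000077097, chromosome 3, 25597905 to 25664907, minus strand), the isoform that non-dividing cells such as neurons and heart muscle also make, had group means from 312 ± 17.7 CPM (SD, n = 4) in the control to 358 ± 53.6 CPM under miR-100-3p. None of its 6 differences from control was called, and none of its 15 differences between mimics. The largest against control was that of miR-100-3p (0.20 ± 0.09, adjusted p = 0.262, 95% interval 0.0021 to 0.39). Exons of TOP2B overlap those of RARB on the opposite strand, and the sources used here do not say whether strand was used in counting, so reads from the overlap cannot be assigned with certainty.

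Per kilobase of deposited gene length, TOP2A stood at 96.8 ± 0.356 CPM in the control and TOP2B at 78.3 ± 4.44. The ratio of the 2 per-length levels was 1.23 ± 0.0875 (SD) over the 28 libraries. It was 1.24 ± 0.0758 in the control and 1.08 ± 0.072 under miR-100-3p, whose highest library (1.15) lay below the lowest control library (1.16). An exact permutation test, two-sided, gave p = 0.0286, the smallest that 4 against 4 libraries allow, and 0.172 after adjustment over the 18 ratio tests made. The adjusted value could fall under 0.05 only if most of the 18 tests stood at that smallest p. It therefore cannot decide whether a ratio differed.

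The exporter with the clearest differences was ABCB1 (ENSG00000085563, chromosome 7, 87503633 to 87713323, minus strand), P-glycoprotein, the classical multidrug exporter that carries doxorubicin out of cells. Control replicates 1, 2, 4 and 5 held 20.1, 18.6, 17.3 and 13.4 CPM of ABCB1. The miR-380-3p replicates 1 to 4 held 26.6, 22.9, 25.0 and 24.8 CPM. Every miR-380-3p library was above every control library, and ABCB1 rose from 17.3 ± 2.87 to 24.8 ± 1.53 CPM (1.44-fold, log2 change 0.52 ± 0.12, adjusted p = 0.00435). This call held in all 41 alternative settings and omissions run.

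Under miR-485-3p, whose seed match lies in the ABCB1 3′ UTR shown above, replicates 1, 2, 3 and 5 held 14.1, 13.0, 13.9 and 12.7 CPM of ABCB1. ABCB1 fell to 13.4 ± 0.652 CPM (0.779-fold, log2 change -0.36 ± 0.12, adjusted p = 0.0375). The ranges overlapped, because control replicate 5 was as low as the miR-485-3p libraries. The call held in 30 of the 41 alternatives. It was lost without control replicate 1 (log2 change -0.28, adjusted p = 0.151), 2 (0.102) or 4 (0.0662), without miR-485-3p replicate 1 (0.0566), 2 (0.0695), 3 (0.064) or 5 (0.0777), and with limma-voom (0.0647), library size alone (0.0577), no filter (0.0577) or only the 8 libraries compared (0.0808).

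Between mimics, 25 of the 120 contrasts of a member were called (20.8%), beside 18.4% over all tested genes. ABCB1 gave 8 of its 15. The difference between miR-380-3p and miR-485-3p was 0.88 ± 0.12 on the log2 scale (adjusted p = 3.06e-06), and their ranges did not overlap. ABCB1 under miR-380-3p was higher than under each of the other 5 mimics, by 0.49 to 0.88, in each single omission. Without both suffixed miR-1915-3p libraries the contrast with that mimic was not called (adjusted p = 0.0744). ABCB1 under miR-485-3p was also lower than under miR-100-3p (0.39 ± 0.12, adjusted p = 0.0185), miR-1915-3p (0.37 ± 0.12, 0.0274) and miR-99b-5p (0.36 ± 0.12, 0.023), which held in 27, 24 and 24 of the 28 single omissions, while the contrast with miR-1283 was not called (0.0529). The groups in between, miR-100-3p, miR-1915-3p, miR-99b-5p, the control and miR-1283, had means from 17.7 down to 17.0 CPM, and no 2 neighbours in that order were called apart. Of the 28 ABCB1 values 17 are not whole numbers, by at most 0.27 of a count.

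ABCC1 (ENSG00000103222, chromosome 16, 15949577 to 16143074, plus strand) encodes MRP1, an exporter of anthracyclines and of glutathione conjugates, and was the most abundant exporter here. Control replicates 1, 2, 4 and 5 held 168, 166, 149 and 172 CPM of ABCC1. The miR-380-3p replicates 1 to 4 held 155, 142, 142 and 134 CPM, and the miR-99b-5p replicates 2, 3, 4 and 7 held 179, 194, 175 and 192 CPM. The miR-99b-5p libraries all lay above the controls, while the miR-380-3p range overlapped that of the controls through 1 library on each side. Neither difference was called (miR-380-3p -0.19 ± 0.06, adjusted p = 0.0523; miR-99b-5p 0.17 ± 0.06, adjusted p = 0.0647). The miR-380-3p difference was called in 11 of 41 alternatives. The smallest adjusted p, 0.000394, was against the mean of the other 5 mimics. Against the control itself the called values ran from 0.0137 to 0.0496. Among the single omissions that called it were control replicate 4 (0.0256) and miR-380-3p replicate 1 (0.0276). The miR-99b-5p difference was called in 3 of 41: with DESeq2 (adjusted p = 0.0477), with the replicate number as a block (0.0183) and against the mean of the other 5 mimics (0.00673). The block also called the miR-380-3p difference (0.035).

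Compared directly, ABCC1 was lower under miR-380-3p than under each of the other 5 mimics. The largest of these differences was against miR-99b-5p (-0.37 ± 0.06, adjusted p = 9.36e-05), and the smallest against miR-1915-3p (0.20 ± 0.06 higher under miR-1915-3p, adjusted p = 0.0367). The differences from miR-1283 and miR-1915-3p were kept in 23 and 20 of the 28 single omissions (adjusted p up to 0.141 and 0.165 over the alternatives), and those from the other 3 mimics in all 28. ABCB1 and ABCC1 thus lay at opposite ends of their orders under miR-380-3p, where ABCB1 was highest and ABCC1 lowest of the 7 groups.

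The per-length ratio of ABCC1 to ABCB1 was 4.65 ± 1.01 (SD, n = 4) in the control, 2.77 ± 0.159 under miR-380-3p and 6.18 ± 0.337 under miR-485-3p. The miR-380-3p libraries (2.59 to 2.97) lay below all controls (4.03 to 6.16). The exact permutation p was 0.0286, again the smallest possible, and 0.172 after adjustment, which cannot decide for the reason given above. For miR-485-3p the exact permutation p was 0.114, adjusted 0.41.

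ABCC4 (ENSG00000125257, chromosome 13, 95019829 to 95301475, minus strand) encodes MRP4, which is best known for carrying cyclic nucleotides and nucleotide-like drugs. Its group means ran from 46.6 ± 4.54 CPM under miR-1915-3p to 58.0 ± 6.2 CPM under miR-100-3p, around 50.5 ± 2.79 in the control. No difference from control was called. Under miR-380-3p, for which its 3′ UTR holds a seed match, ABCC4 was at 51.9, 46.7, 51.2 and 51.0 CPM in replicates 1 to 4. The controls held 49.6, 50.4, 47.8 and 54.4 CPM, so that 3 of the 4 miR-380-3p libraries lay within their range and replicate 2 lay below it. The log2 change was -0.01 ± 0.10 with a 95% interval of -0.22 to 0.20, so a fall of over 0.22 lies outside the interval. Of its 15 contrasts between mimics, 2 were called, those of miR-100-3p with miR-1915-3p (0.31 ± 0.10, adjusted p = 0.043) and with miR-99b-5p (0.28 ± 0.10, adjusted p = 0.0457). They held in 16 and 11 of the 28 single omissions, with adjusted p up to 0.165 and 0.138 over the alternatives.

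**Figure D3:**
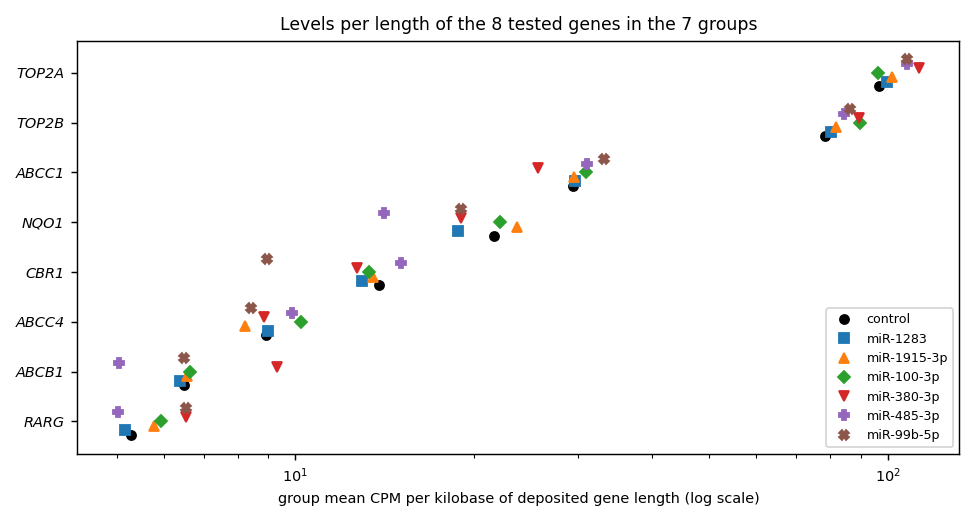
Group mean level of each tested member per kilobase of deposited gene length (x axis, CPM per kilobase, log scale), by gene (y axis), with a marker for each group. The order between genes depends on those lengths and is uncertain. The topoisomerases lead, ABCC1 is the highest exporter, and ABCB1 and RARG are the lowest members in every group but miR-380-3p, where ABCB1 is at 9.3, above ABCC4 at 8.85.

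Levels per length set genes side by side only as far as the deposited lengths hold. For NQO1 that length, 1053.58 bases, is below the 1575 bases of the 3′ UTR searched here. The order between genes is therefore uncertain, while each gene's change between groups does not depend on its length. In these units the control held 29.4 ± 1.85 CPM per kilobase of ABCC1, 8.91 ± 0.492 of ABCC4 and 6.49 ± 1.08 of ABCB1. Under miR-380-3p the order of the last 2 exporters turned, with ABCB1 at 9.3 ± 0.572 and ABCC4 at 8.85 ± 0.414 CPM per kilobase, a gap within their spread. The reductases lay between, with NQO1 at 21.6 ± 2.84 and CBR1 at 13.9 ± 0.968 CPM per kilobase in the control. RARG was lowest, at 5.28 ± 0.224.

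CBR1 (ENSG00000159228, chromosome 21, 36069941 to 36073166, plus strand) is the main cytosolic carbonyl reductase of doxorubicin and daunorubicin. Control replicates 1, 2, 4 and 5 held 16.8, 16.9, 17.8 and 19.5 CPM of CBR1. The miR-99b-5p replicates 2, 3, 4 and 7 held 9.84, 11.7, 10.5 and 13.8 CPM. All 4 were below every control, and CBR1 fell from 17.7 ± 1.24 to 11.5 ± 1.74 CPM (0.647-fold, log2 change -0.63 ± 0.12, adjusted p = 0.000345). This call held in all 41 alternatives.

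CBR1 was also lower under miR-99b-5p than under each of the other 5 mimics, by 0.50 to 0.75 on the log2 scale (adjusted p from 1.28e-05 to 0.00206), and these 5 were all of its called contrasts between mimics. Each held in every alternative run. The other 6 groups had means from 16.3 to 19.3 CPM, and no neighbours among them were called apart. The CBR1 3′ UTR, 284 bases, held no seed match to any of the 6 mimics. A gene on the opposite strand, AP000688.1, overlaps exons of CBR1.

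NQO1 (ENSG00000181019, chromosome 16, 69706996 to 69726951, minus strand) encodes a quinone reductase that belongs to the NRF2 antioxidant response. In control replicates 1, 2, 4 and 5 NQO1 stood at 19.9, 23.7, 20.9 and 26.6 CPM. In miR-485-3p replicates 1, 2, 3 and 5 it stood at 14.4, 14.0, 12.7 and 18.4 CPM. No miR-485-3p library reached the lowest control, and NQO1 fell from 22.8 ± 2.99 to 14.9 ± 2.48 CPM (0.651-fold, log2 change -0.62 ± 0.16, adjusted p = 0.00637), in all 41 alternatives. Its 1575-base 3′ UTR held no seed match.

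Against the other mimics, NQO1 under miR-485-3p was lower than under miR-1915-3p (0.75 ± 0.16, adjusted p = 0.000994), miR-100-3p (0.65 ± 0.16, 0.00295), miR-99b-5p (0.43 ± 0.16, 0.0395) and miR-380-3p (0.43 ± 0.16, 0.0471). The last 2 held in 23 and 16 of the 28 single omissions, each with adjusted p up to 0.16 over the alternatives. The difference from miR-1283 was not called (0.41 ± 0.16, adjusted p = 0.07). NQO1 had the widest spread of the reductases, with a median coefficient of variation within groups of 16.7%, against 9.83% for CBR1. An opposite-strand gene, AC092115.2, overlaps its exons, and 1 of its 28 values is not whole.

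The per-length ratio of NQO1 to CBR1 was 1.56 ± 0.144 (SD, n = 4) in the control. It was 0.935 ± 0.119 under miR-485-3p, where every library (0.849 to 1.1) was below every control (1.43 to 1.71), and 2.19 ± 0.65 under miR-99b-5p. The exact permutation p was 0.0286 for miR-485-3p, adjusted 0.172, and 0.0857 for miR-99b-5p, adjusted 0.386. The ratio tests were chosen after the levels had been seen, and the limit on the adjusted p given for TOP2A and TOP2B applies to all of them.

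CBR3 (ENSG00000159231, chromosome 21, 36134912 to 36146566, plus strand), the near neighbour and relative of CBR1, had 4 counts in total, 1 in each of 4 libraries: control replicate 5, miR-100-3p replicate 3 and miR-1283 replicates 3 and 4. In the other 24 libraries it was at 0, which at 3 counts allows a level of up to 0.129 CPM in the deepest and 0.273 CPM in the shallowest library, for counting error only. No comparison was made for CBR3.

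RARG (ENSG00000172819, chromosome 12, 53210567 to 53232980, minus strand), a nuclear receptor for retinoic acid, was at 10.9, 11.9, 11.9 and 11.3 CPM in control replicates 1, 2, 4 and 5. It was at 14.0, 15.3, 13.9 and 13.7 CPM in miR-380-3p replicates 1 to 4, and at 12.01, 16.3, 14.7 and 13.9 CPM in miR-99b-5p replicates 2, 3, 4 and 7. Both ranges lay above the control, and neither difference was called (0.30 ± 0.15, adjusted p = 0.211, and 0.31 ± 0.15, adjusted p = 0.165). The 1 called contrast was that between miR-485-3p, the lowest group (10.9 ± 1.87 CPM), and miR-99b-5p, the highest (14.2 ± 1.78 CPM), at -0.39 ± 0.15 (adjusted p = 0.0429). It held in 22 of the 28 single omissions, with adjusted p up to 0.14. RARG under miR-100-3p fell into a pair near 10 CPM (9.6 and 10.3) and a pair near 16 (15.0 and 16.7), a coefficient of variation of 27%.

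Libraries differed in how their counts leaned toward GC-rich or GC-poor genes, and several members moved with this lean. It was measured as the slope over genes of the log2 deviation of a library on GC content, and ran from -2.16 (miR-99b-5p replicate 2) to 3.04 (miR-485-3p replicate 2). The 2 libraries with the highest slopes, miR-485-3p replicate 2 and miR-1283 replicate 4 (1.94), held the lowest TOP2A, TOP2B and ABCC4 of their groups. TOP2A, TOP2B, ABCB1 and ABCC4 are GC-poor, at 39.1%, 39.8%, 43.1% and 43.2%. Within groups their levels fell with the slope over the 28 libraries (Pearson r = -0.769, -0.872, -0.588 and -0.848, as a description). CBR1 (52.1% GC) and RARG went the other way, at r = 0.723 and 0.722. ABCC1, at 54.9% GC richer than CBR1, did not go with them (r = -0.349), and NQO1 (46.0% GC) was at r = -0.095. The members were thus not sorted by GC content alone. The miR-99b-5p libraries, in which CBR1 fell, had the lowest mean slope of the 7 groups (-0.748, against 0.48 in the control), and with the slope as a covariate the log2 change of CBR1 there was -0.52 (adjusted p = 7.98e-05). ABCB1 was then 0.47 higher under miR-380-3p (adjusted p = 0.000774) and 0.35 lower under miR-485-3p (adjusted p = 0.00868). RARG, the most GC-rich member (60.02%), had its 2 high miR-100-3p values in the libraries with the higher slopes of that group (0.203 and 1.5, against -1.76 and -1.22). All 4 calls against control remained with that covariate, and 5 more were made: TOP2A (0.18, adjusted p = 0.04), ABCC1 (-0.21, 0.0137) and RARG (0.38, 0.0163) under miR-380-3p, and ABCC4 (-0.20, 0.0185) and RARG (0.45, 0.00368) under miR-99b-5p. The contrasts of miR-485-3p with miR-99b-5p for ABCB1 and NQO1 were then not called (adjusted p = 0.0572 and 0.0503).

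**Figure D4:**
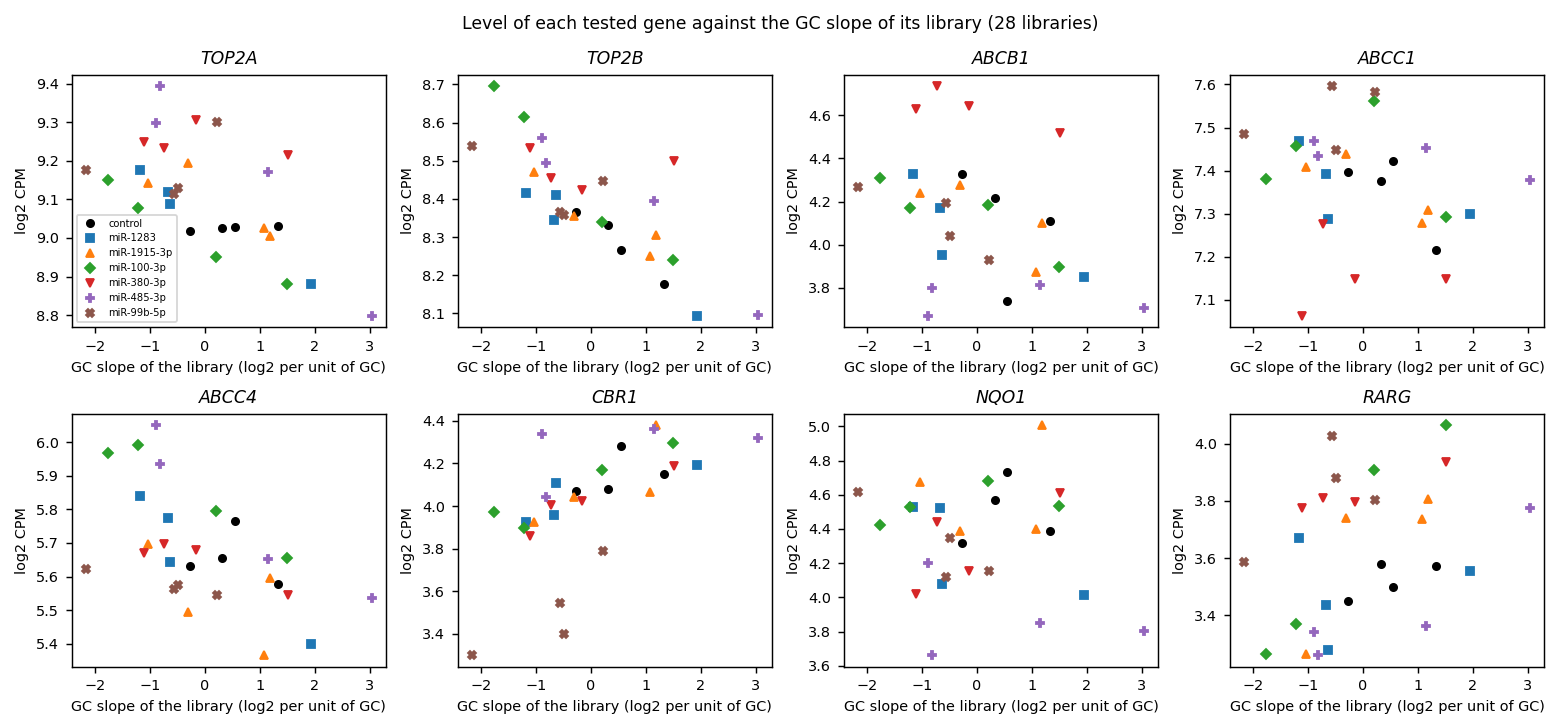
Level of each tested member (y axis, log2 CPM) against the GC slope of its library (x axis, log2 per unit of GC fraction) in the 28 libraries, with a marker for each group. TOP2A, TOP2B and ABCC4 are mostly lower and RARG and CBR1 mostly higher toward the right within a group. TOP2A is not lower toward the right in the control, where it is nearly flat, or in miR-99b-5p, where it is highest at the highest slope. The ABCB1 points of miR-380-3p lie above and the CBR1 points of miR-99b-5p below those of all other groups.

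The members' neighbours in the drug pathway were taken from 7 lists of 84 genes, of which 80 had a row and 66 were tested. Against control, 42 of their 396 combinations with a mimic were called (10.6%, 23 higher and 19 lower), beside 9.13% over all genes. They fell to miR-485-3p (12 higher, 5 lower), miR-99b-5p (4 higher, 10 lower), miR-100-3p (6 higher, 3 lower) and miR-380-3p (1 higher, 1 lower), with none under miR-1915-3p or miR-1283. Over all tested genes, 10.5% were called higher and 10.6% lower under miR-485-3p, 8.11% and 8.48% under miR-99b-5p, 2.9% and 3.05% under miR-100-3p, and 5.6% and 5.25% under miR-380-3p. The list median of the log2 change was 0.12 under miR-485-3p and -0.12 under miR-99b-5p, where the medians of all genes were 0.0246 and -0.0026. The count of 42 became 25 without control replicate 1, 26 without control replicate 5 and 27 without control replicate 2.

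Over all tested genes, 39% were called under at least 1 of the 6 mimics, against which the counts of genes below are to be read; 31 of the 66 listed genes were. Among other topoisomerases and genes that repair trapped cleavage complexes, 4 of 9 were called under at least 1 mimic, and 5 of 54 combinations (9.26%), near the background of 9.13%. TDP1, which frees DNA ends chiefly from trapped type I topoisomerase, rose under miR-485-3p from 43.2 ± 2.03 to 53.5 ± 1.7 CPM (log2 change 0.31, adjusted p = 8.35e-05). TDP2, also in this list, was tested and was not called under any mimic. MRE11A, the nuclease of the break-sensing complex, fell under miR-99b-5p from 102.7 ± 8.58 to 74.3 ± 5.52 CPM (-0.47, adjusted p = 0.00338) and under miR-100-3p (-0.42, adjusted p = 0.0203), the latter in 24 of the 28 single omissions (adjusted p up to 0.0716). SPRTN, a protease of DNA-protein crosslinks, fell under miR-485-3p (-0.25, adjusted p = 0.0233), a call kept in 24 of 28 omissions. The lysosomal protease CTSB rose under miR-99b-5p (0.52, adjusted p = 0.00033).

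Of the other drug exporters, 7 of 12 tested were called at least once, in 6 falls and 2 rises. These 8 of 72 combinations (11.1%) are near the 9.13% over all genes. ABCB4, the phospholipid carrier next of kin to ABCB1, fell under miR-99b-5p (-1.91, adjusted p = 0.00714) at very low levels (0.66 ± 0.241 to 0.164 ± 0.0668 CPM). ABCC10 fell under miR-99b-5p from 18.5 ± 2.03 to 12.8 ± 1.64 CPM (-0.53, adjusted p = 0.0179), a call lost on leaving out either miR-99b-5p replicate 2 or control replicate 5 (adjusted p up to 0.0662). ABCA3 fell under miR-100-3p (-0.32, adjusted p = 0.0204, in 26 of 28 omissions) and miR-99b-5p (-0.24, adjusted p = 0.0465, in 12 of 28). Of 10 uptake carriers listed, 7 had a row and only 2 were tested, too few to speak for drug uptake. Both rose under miR-485-3p, where 10.5% of all genes were called higher. They were the carnitine carrier SLC22A5, from 6.04 ± 0.696 to 8.73 ± 0.175 CPM (0.53, adjusted p = 0.00252), and the nucleoside carrier SLC29A1 (0.33, adjusted p = 0.0214, in 24 of 28). These were 2 of 12 combinations (16.7%), beside 9.13% over all genes.

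Of 10 further carbonyl and aldo-keto reductases, 2 were called under at least 1 mimic, beside 39% of all genes. These were 2 of 60 combinations (3.33%), below the 9.13% over all genes. CBR4 fell under miR-485-3p from 39.7 ± 3.15 to 31.6 ± 2.78 CPM (-0.33, adjusted p = 0.0123, and 0.0576 without control replicate 1). AKR1C2 rose under miR-100-3p from 1.57 ± 0.488 to 3.3 ± 0.402 CPM (1.07, adjusted p = 0.00987; 0.0507 without control replicate 2), and its reads may be shared with the near-identical genes of its family.

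The antioxidant and NRF2 list, to which NQO1 is closest, had 20 of its 102 combinations called (19.6%), 14 higher and 6 lower, beside 9.13% over all genes. They lay in 11 of its 17 genes, beside the 39% of all genes called at least once. Under miR-485-3p, where NQO1 fell, SRXN1, a sulfiredoxin, rose by 0.59 on the log2 scale from 37.9 ± 0.376 CPM to 57.1 ± 6.88 CPM (adjusted p = 1.34e-05). SOD2, the mitochondrial superoxide dismutase, rose by 0.48 from 74.2 ± 3.34 CPM to 103.8 ± 15 CPM (adjusted p = 0.000136). The cystine carrier SLC7A11 fell there from 11.1 ± 2.33 to 6.62 ± 1.21 CPM (-0.73, adjusted p = 0.00124). NFE2L2, which encodes NRF2 itself, was 0.25 higher under miR-485-3p (adjusted p = 0.0496), a call kept in 8 of the 28 single omissions. In all, 6 of the 17 genes were called higher and 2 lower under miR-485-3p, beside 10.5% and 10.6% of all genes. The list was chosen with earlier results of these data known, so its shares are a description only.

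Under the other mimics SLC7A11 rose with miR-100-3p to 20.0 ± 1.42 CPM (0.85, adjusted p = 0.000544) and fell with miR-99b-5p (-0.83, adjusted p = 0.000407) and miR-380-3p (-0.50, adjusted p = 0.0365, in 23 of 28 omissions). SOD2, whose identifier is not in the gene-name table used here, fell with miR-100-3p (-0.68, adjusted p = 1.26e-05) and miR-99b-5p (-0.30, adjusted p = 0.0156, in 26 of 28) and rose with miR-380-3p (0.28, adjusted p = 0.0314, in 22 of 28). NFE2L2 rose with miR-99b-5p (0.40, adjusted p = 0.0021) and miR-100-3p (0.38, adjusted p = 0.00868, in 27 of 28). NQO1 was not called under any of these 3 mimics.

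**Figure D5:**
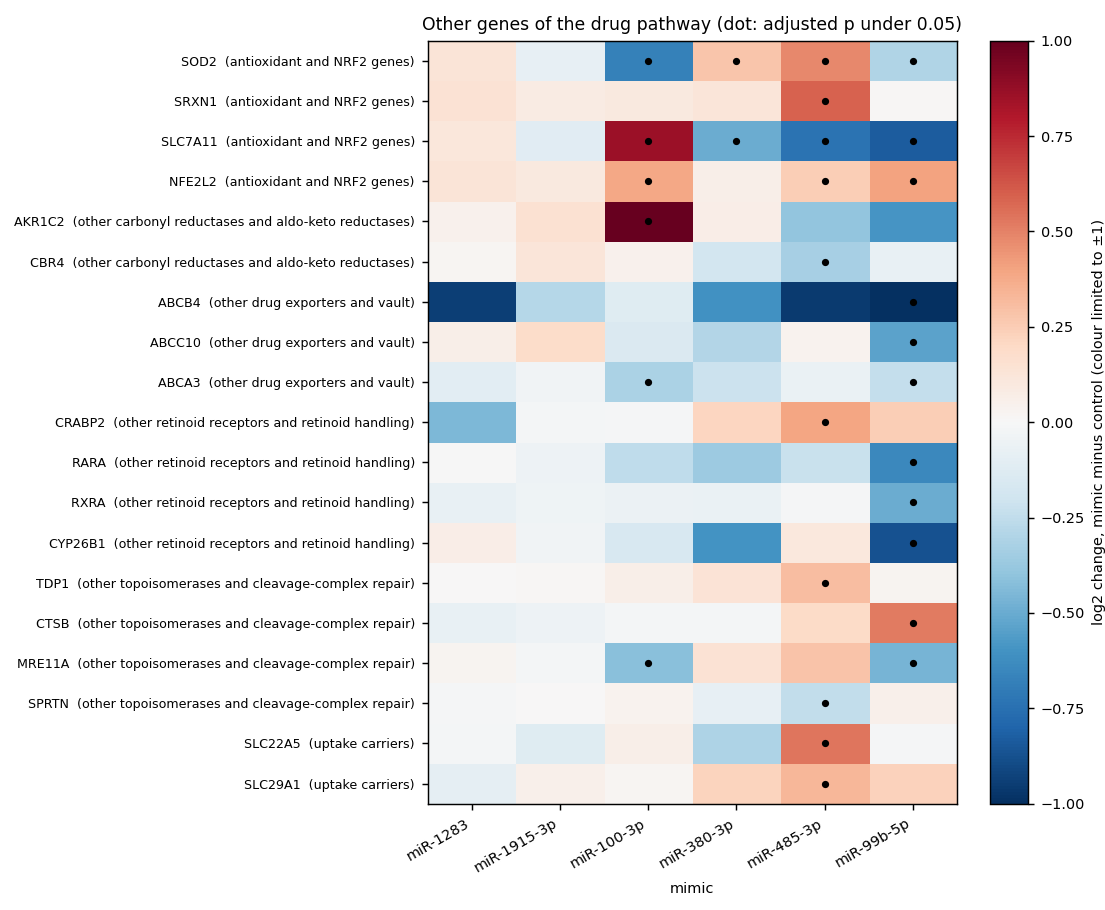
Log2 change (colour, mimic minus control, limited to ±1) of the pathway genes named in the text (y axis, with their list) under each mimic (x axis). A dot marks an adjusted p under 0.05. The miR-1283 and miR-1915-3p columns hold no dot, and SLC7A11 and SOD2 each carry dots of both directions.

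Beside RARG, 4 of 7 tested retinoid genes were called at least once, in 4 of 42 combinations (9.52%), about the 9.13% over all genes. Under miR-99b-5p the receptors RARA (80.1 ± 7.45 to 51.1 ± 9.26 CPM, -0.65, adjusted p = 0.017) and RXRA (-0.49, adjusted p = 0.0206) and the retinoic acid hydroxylase CYP26B1 (-0.87, adjusted p = 0.0233) fell, while RARG was 0.31 higher and not called. These 3 falls were kept in 26, 24 and 25 of the 28 single omissions, with adjusted p up to 0.0678, 0.0917 and 0.168 over the alternatives. The retinoic acid carrier CRABP2 rose under miR-485-3p (0.39, adjusted p = 0.0152, in 25 of 28).

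For each member, the other genes whose log2 CPM followed it most closely over the 28 libraries were ranked by Pearson r among 11478 genes, as a description without a test, since the libraries share groups and GC lean. The closest were PCM1 (r = 0.946) and TOP1 (0.899), the type I topoisomerase, for TOP2B, and NNT-AS1 (0.906) and FAM178A (0.884) for TOP2A. For the exporters they were FSTL1 (0.884) and ARHGEF28 (0.868) for ABCB1, MED12L (0.901) and ZNF772 (0.894) for ABCC1, and PDS5A (0.873) and DIP2B (0.859) for ABCC4. PPFIA3 (0.919) and EEF2 (0.915) were closest to CBR1, MRPS14 (0.815) and EPHX2 (0.812) to NQO1, and SMO (0.805) and LRP10 (0.762) to RARG. Next after these came IPO7 for TOP2A, WAPAL for TOP2B, GPM6A for ABCB1, IKBKAP for ABCC1, FBXW11 for ABCC4, DGCR2 for CBR1, KIFAP3 for NQO1 and IL27RA for RARG, with r from 0.735 to 0.906.

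Over the series, library totals ran from 11.0 M to 23.3 M counts (median 15.0 M). All 10 neuroblastoma markers checked were present, with a summed level of 11574 to 12603 CPM in the control, 8759 to 10782 under miR-380-3p, 7515 to 10269 under miR-485-3p and 8267 to 10224 under miR-99b-5p. Markers of other cell types, 9 of 10 with a row, summed to 12.9 to 15.6 CPM in the control, 13.5 to 17.6 under miR-380-3p, 9.52 to 12.2 under miR-485-3p and 7.06 to 8.42 under miR-99b-5p. PECAM1 of endothelium and ALB of liver were at 0 CPM in the 4 controls, so the control sum came from other markers of this list. None of the 9 was at 0 in all 28 libraries. The neuroblastoma sum of each of the 3 mimics under which a member was called lay below the control range, as did the other sum under miR-485-3p and miR-99b-5p, and their part in the results for ABCB1, CBR1 and NQO1 was not tested. In such bulk libraries fewer cells that make an mRNA and less of it per cell cannot be told apart.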

How the data were processed

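The authors deposited a table of expected counts per gene with a gene length column. Reads were aligned with STAR to hg19, per the submitters' processing notes, and the library kit was strand-specific, per the labels' protocols. The counting tool and annotation are not given in the sources used here. Of the deposited expected counts 10.2% are not whole, and 951 of 30887 rows hold none.

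Counts were rounded, filtered with filterByExpr (15058 genes), scaled by TMM (factors 0.948 to 1.03) and fitted in edgeR 4.0.16 by quasi-likelihood over all 28 libraries, with 1 coefficient per group, 21 residual degrees of freedom and a coefficient of variation of 12.2%. Tests were two-sided, adjusted by Benjamini-Hochberg over all genes of a comparison, and called under 0.05. There were 6 contrasts with control, 15 between mimics and 1 joint F test. CPM are TMM-scaled, given as mean ± SD, and log2 changes as estimate ± SE. Levels per kilobase use the deposited length. Coordinates and UTRs are from GENCODE v29 (GRCh38), not the authors' hg19. A UTR is that of the protein-coding transcript with the longest coding sequence (at least 50 bases).

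The members and gene lists were chosen with earlier results of these data known. Named genes are all members, up to 4 called genes per list with the smallest adjusted p, and the 3 genes most like each member (prior count 2, mean log2 CPM of at least 2). Some genes that met this rule are not reported here. Alternatives were DESeq2 1.42.0, limma-voom (limma 3.58.1), other scalings, filters, covariates and sample sets, and single omissions. Replicate numbers recur across groups. Over 17 pairs of a mimic and a control library with the same number, deviations from group means correlated at -0.092 to 0.303 (median 0.113, over 0.1 in 9). Over 79 pairs with different numbers the median was -0.012, with 12 over 0.1. Same-numbered libraries were thus more alike at the median. No label ties them, so the main fit did not take the numbers to pair samples. Whether they do is not known, and the replicate number as a block is among the alternatives.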

Additional observations from a re-analysis of the deposited data

Results flagged for a closer look

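Of 56 groups of 4 libraries (8 members in 7 groups), 3 held a library past the 95% critical value of Dixon's test, which sets its gap to the nearest library against the range of the group. Chance gives about 1 in 20 groups. CBR1 in miR-485-3p replicate 3 was lowest of its group at 16.5 CPM, with the others at 20.0 to 20.6. RARG in miR-1915-3p replicate 1, a library with the suffixed title, was lowest at 9.62 CPM, with the others at 13.3 to 14.0. RARG in miR-485-3p replicate 2, the library with the highest GC slope, was highest at 13.7 CPM, with the others at 9.59 to 10.3.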

How the results depend on the processing

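No member's change against control that was called reversed its direction in an alternative. Against control, 11 alternative values of called members fell short of the threshold, all of them ABCB1 under miR-485-3p. Another 22 values passed the threshold that had not, counting those against the mean of the other 5 mimics. With that reference ABCC1 passed under miR-380-3p and miR-99b-5p, and CBR1 under miR-485-3p. The 4 calls against control, 25 between mimics, 4 in the joint test and 42 in the pathway lists became 9, 40, 8 and 69 with the GC slope as a covariate. Measured against the mean of the other 5 mimics, the calls of members became 7 and those of the lists 83, and without a filter on low counts the lists gave 26. Leaving out single libraries gave 3 to 6, 20 to 27, 4 to 7 and 25 to 48 calls. The joint test gave 7 without miR-485-3p replicate 2, and the lists gave 25, 26 and 27 without control replicates 1, 5 and 2. With the replicate number as a block there were 6, 30, 4 and 41 calls, the 2 added against control being ABCC1 under miR-380-3p and miR-99b-5p, and 7 of 17 mimic libraries were closest to the control of their own number. DESeq2 gave 6, 29, 4 and 43 calls and limma-voom 3, 24, 4 and 38. The cause of these moves was not tested. Low counts limit CBR3 (4 in all) and ABCB4.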
